A study of Danio rerio with 3 samples.

Results

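Macrophages of ptpn6 mutant zebrafish larvae were set against those of their siblings on the second of 2 sort days. The gene ptpn6 encodes Shp1, a phosphatase with SH2 domains that removes phosphate from tyrosines downstream of cytokine, integrin and immune receptors. In mammals it acts mainly as a brake on myeloid cells, and mice without it develop inflammation driven by myeloid cells. The series asked what Shp1 does in the early development of the blood system. Larvae were dissociated whole at 5 days post fertilization, cells positive for mpeg, a macrophage reporter, were sorted into 384-well plates, and each well was sequenced with CEL-Seq2. This method reads transcripts from their 3′ end and tags each captured molecule with a random barcode, the unique molecular identifier or UMI, which lets copies of 1 molecule be counted once.

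The comparison used 1 plate of ptpn6 mutants and 1 plate of ptpn6 siblings. The labels give no allele and do not say how many siblings were wild type or heterozygous, and how many embryos fed a plate is not stated in the labels. Wells with at least 1000 UMIs over genes were kept, which left 125 of 384 mutant wells (32.6%) and 199 of 384 sibling wells (51.8%), or 324 of the 593 wells kept in the whole series. The other 269 came from the shared plate of sort day 1, where mutants and siblings had 138 and 131. Genotype and plate coincide on sort day 2 and cannot be told apart, and with 1 plate a genotype there is no replicate and no test. All intervals below cover counting error only.

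The mutant wells held 1290186 UMIs in total, with 9964 in the median well, between 1023 and 60615, and 2221 genes detected in the median well. The sibling wells held 2185636 UMIs, with 9680 in the median well, between 1358 and 168454, and 2070 genes. UMIs were summed over the wells of a plate and expressed as CPM, counts scaled to 1e+06 per plate, and each gene's difference is the CPM ratio of mutants over siblings. The 4373 genes with a mean CPM of at least 20 were compared, and 82.9% of them lay within 2-fold of equal CPM. At least 3 of the macrophage markers listed had a UMI in 119 of 125 mutant wells and in 197 of 199 sibling wells. In these summed wells, fewer cells of a type and less RNA per cell cannot be told apart.

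A single sibling well stood apart and touched many of the lower genes. It held 168454 UMIs, or 7.71% of all sibling UMIs, where the next well held 38425. Its leading genes were those of cone photoreceptors. The cone opsin gene opn1sw had 0 UMIs in mutant wells and 10407 in sibling wells, of which 9174 came from this well. The cone transducin gene gnat2 had 0 UMIs in mutants and 1595 in siblings, 1418 of them in the same well. It had a UMI in 0 mutant wells and in 109 sibling wells.

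Differences of at least 4-fold went in both directions. Of the 4373 genes, 78 were at least 4-fold higher in mutants (1.78%) and 105 at least 4-fold lower (2.4%). Without the photoreceptor-led well, 84 were higher (1.98%) and 42 lower (0.99%) of 4243 genes, of which 74 and 39 were among the first sets. In that well 77 of the 105 lower genes had over 50% of their sibling UMIs. Leaving it out did not free the sibling plate of photoreceptor RNA, and the 42 still included cone genes. The log2 ratio was then −8.04 for opn1sw and −5.24 for gnat2. Genes spread over the plate, with a UMI in at least 10% of the wells of the plate where they were higher and no more than 50% of its UMIs in the 3 richest wells, numbered 62 higher (1.42%) and 18 lower (0.412%). The median gene stood at a log2 CPM ratio of 0.20. With the trimmed-mean scaling of edgeR, called TMM, that median was −0.07 and the counts were 49 higher and 129 lower. With scaling by the median gene ratio it was −0.01, with 55 higher and 126 lower.

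**Figure D1:**
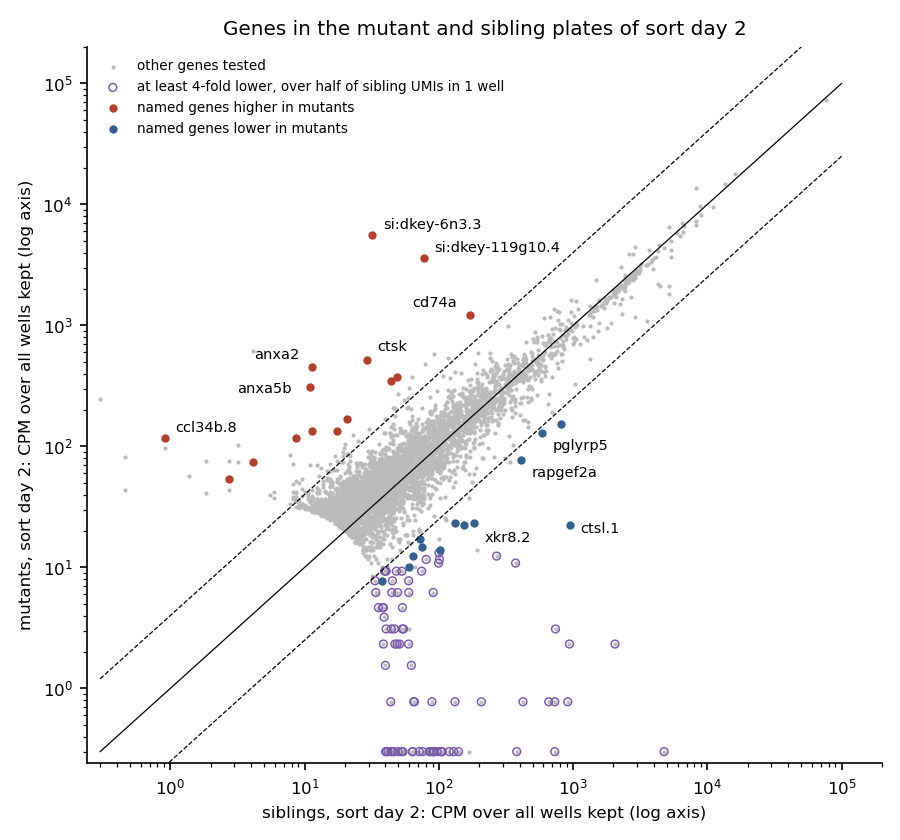
CPM of each gene tested in the mutant plate (vertical log axis) against the sibling plate (horizontal log axis) of sort day 2, with equality as a solid line and 4-fold as dashed lines; genes with 0 UMIs are drawn at the lower edge. The named higher genes, led by si:dkey-6n3.3, stand above the upper dashed line, the named lower genes stand below the other, and the open circles are the 77 lower genes with over 50% of their sibling UMIs in 1 well.

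The targeted gene itself was close to the detection limit. Transcripts of ptpn6 (ENSDARG00000089043) had 0 UMIs in mutants, where a count of 0 allows 3 UMIs, and 3 UMIs in siblings, or 1.37 CPM. On the shared plate of sort day 1 it had 5 UMIs in mutants and 11 in siblings. These counts cannot check the genotype, since the lesion is not described and a 3′ count need not reflect it.

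The 2 spread-out genes whose counting interval lay farthest above equality have no described role in the files. The first, si:dkey-6n3.3, had 7162 UMIs (5551 CPM) in mutants against 70 UMIs (32.05 CPM) in siblings, 173-fold higher in mutants (95% counting interval 137 to 223). It had a UMI in 125 of 125 mutant wells and in 31 of 199 sibling wells. Per well it ran between 279.2 and 38060 CPM in mutants, with a median of 1448, and between 0 and 1121 CPM in siblings, with a median of 0. The ranges of single wells thus overlapped. The lowest mutant well lay above the median sibling well, but with that median at 0 any well with a UMI does so. The second, si:dkey-119g10.4, had 4634 UMIs (3592 CPM) in mutants against 169 (77.4 CPM) in siblings, 46.4-fold higher (39.8 to 54.5). It was present in 121 of 125 mutant wells and 65 of 199 sibling wells. After each well was thinned to 1000 UMIs, si:dkey-6n3.3 was detected in 80.8% of mutant wells (95% Clopper-Pearson interval 72.8 to 87.3) and in 1.51% of sibling wells (0.312 to 4.34). Wells under 500 UMIs, left out here, also held it, at 4631.5 CPM in mutants and 60.9 CPM in siblings. Whether copies of similar sequence shared reads with either gene in the authors' counting was not tested.

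**Figure D2:**
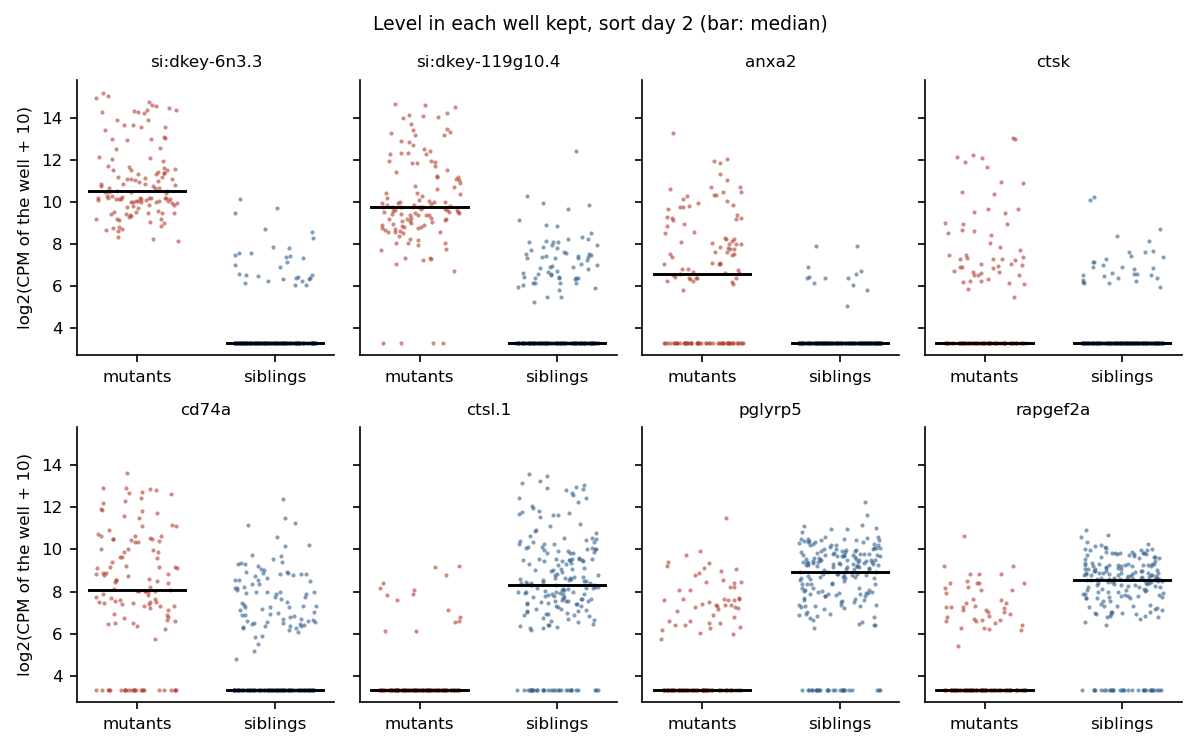
Level of 8 genes in each of the 125 mutant wells (left in each panel) and 199 sibling wells, as log2 of the well's CPM plus 10; bars are medians. The whole mutant column of si:dkey-6n3.3 lies above the sibling median, which is 0 CPM. The genes anxa2 and cd74a are absent from part of the mutant wells, and ctsk, ctsl.1, pglyrp5 and rapgef2a are absent from most of them.

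Annexins, calcium-dependent proteins that bind membrane phospholipids, differed among themselves. Of 7 annexin IDs tested, 3 were at least 4-fold higher in mutants and 0 lower, and the list's median log2 ratio was 0.50 against 0.20 for all genes. Over all genes tested, 1.78% were at least 4-fold higher and 2.4% lower, shares to set beside this and the later list counts. The gene anxa2, whose product organises membrane and actin at the cell surface, had 582 UMIs (450.9 CPM) in mutants and 25 UMIs (11.4 CPM) in siblings, 39.4-fold higher (26.4 to 61.5). It was present in 75 of 125 mutant wells and 13 of 199 sibling wells. The gene anxa5b had 401 UMIs in mutants and 24 in siblings, 28.3-fold higher (18.8 to 44.7), in 68 and 10 wells. The third, anxa1, had 107 and 37 UMIs, 4.90-fold higher, but its log2 ratio was −1.79 on sort day 1. By contrast anxa3b had 72 UMIs in mutants and 238 in siblings, a log2 ratio of −0.97 that did not reach 4-fold. In mutant wells anxa2 and anxa5b were found together in 56 wells, anxa2 alone in 19, anxa5b alone in 12 and neither in 38. The S100 gene s100a10b, whose mammalian counterpart binds annexin A2, had 263 UMIs in mutants and 104 in siblings, 4.29-fold higher (3.40 to 5.43), against a log2 ratio of −0.82 on sort day 1, and was under 4-fold with TMM scaling.

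The list of matrix, growth factor and repair genes held the most higher members past 4-fold. Of 20 tested, 7 were higher in mutants and 0 lower, or 7 and 1 without the photoreceptor-led well, and the median was 0.64 above that of all genes on the log2 scale. In wells with at least 3 macrophage markers, 5 of 19 were higher and 1 lower, beside 73 and 108 of 4356 genes tested there. The shares over all genes tested were 1.78% higher and 2.4% lower. The list was chosen with earlier results of these data known, so its count is no independent result. On sort day 1 its median log2 ratio was 0.06, against 0.03 for all genes. The 7 were fap, cd276, igf2b, mrc1b and mmp9, described here, and fn1 and spp1, described further on, whose mutant UMIs lay mostly in 3 wells. The serine protease gene fap had 96 UMIs in mutants and 9 in siblings, 18.1-fold higher (9.13 to 40.7). The gelatinase gene mmp9 had 393 and 132 UMIs, 5.04-fold higher (4.13 to 6.19), with a log2 ratio of −0.39 on sort day 1. The growth factor gene igf2b had 98 and 38 UMIs and the mannose receptor gene mrc1b 270 and 102, 4.37-fold and 4.49-fold higher. With TMM scaling both were under 4-fold, at log2 ratios of 1.87 for igf2b and 1.91 for mrc1b, and they passed 4-fold in 8 and 7 of 12 settings. The membrane protein gene cd276, a member of the B7 family, had 151 UMIs in mutants and 19 in siblings, 13.5-fold higher (8.33 to 22.98).

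The osteoclast-type genes did not move together. Of 9 tested, 2 were higher in mutants, ctsk and mmp9, and 1 was lower, ctsl.1, while 7 lay below the median of all genes and the list's median was 0.25 below it. Their summed level was 0.251% of UMIs in mutants and 0.282% in siblings. The protease gene ctsk, which encodes the collagen-degrading cathepsin K of osteoclasts, had 671 UMIs (520 CPM) in mutants and 64 UMIs (29.3 CPM) in siblings, 17.8-fold higher (13.7 to 23.3). It had a UMI in 55 mutant wells and 32 sibling wells, and 312 of the 671 mutant UMIs lay in 3 wells. In the settings tried its log2 ratio ranged between 1.5 and 4.16, and it was under 4-fold only where wells with 5 neutrophil marker UMIs were left out, which kept 20 mutant and 19 sibling wells. The genes acp5 and mmp13a, an acid phosphatase and a collagenase of the same list, had log2 ratios of 0.14 and −0.05.

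Other matrix genes were lower or mixed. The metalloprotease inhibitor gene timp2 (ENSDARG00000075261) had 104 UMIs in mutants and 676 in siblings, a log2 ratio of −1.94, just short of 4-fold, or −2.03 without the photoreceptor-led well. Of 10 mesenchyme markers tested, 1 was higher and 1 lower, with a median 1.16 below that of all genes (log2 ratio of the list −0.96). In wells with at least 3 macrophage markers, 0 of 9 were higher and 4 lower. Over all wells kept, the list summed to 0.0480% of UMIs in mutants and 0.0958% in siblings. The collagen gene col1a1a had 48 UMIs in mutants and 366 in siblings, 272 of them in 3 wells. The fibronectin ID ENSDARG00000006526 had 56 UMIs in mutants, 32 of them in 3 wells, against 1 in siblings. On sort day 1 the same fibronectin ID had 18 UMIs in mutants and 122 in siblings, 100 of the 122 in 3 wells.

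Antigen presentation genes were higher in mutants at the class II end. The invariant chain genes cd74a and cd74b, whose products escort class II molecules, had 1561 and 691 UMIs in mutants and 376 and 257 in siblings. The ratios were 7.04-fold for cd74a (6.28 to 7.89) and 4.55-fold for cd74b (3.94 to 5.28), which was under 4-fold with TMM scaling, at a log2 ratio of 1.93. Wells with cd74a numbered 100 of 125 in mutants and 89 of 199 in siblings, and after thinning its share was 38.4% of mutant wells (29.8 to 47.5) and 10.6% of sibling wells (6.65 to 15.7). The class II gene mhc2dab had 54 and 13 UMIs, 7.04-fold higher (3.79 to 14.1). Among 11 genes of the list, 3 were at least 4-fold higher and 0 lower, against 1.78% and 2.4% of all genes. The class I genes b2ml and mhc1zba had log2 ratios of −0.07 and 0.01. The galectin gene lgals9l1, counted among the microglia markers, had 745 UMIs in mutants and 202 in siblings, 6.25-fold higher (5.34 to 7.34), and was the only one of 8 microglia markers tested to pass 4-fold.

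Closely named chemokine genes differed in direction. The gene ccl34b.8 had 150 UMIs in mutants, in 36 wells, against 2 in siblings, both in 1 well, a ratio of 127 with a wide interval (34.6 to 1059). The gene ccl34b.1 had 1353 UMIs (1048 CPM) in mutants and 4224 UMIs (1932 CPM) in siblings, a log2 ratio of −0.88. Whether the authors' counting split reads between them was not tested. Of 11 chemokine and receptor genes tested, 2 were higher and 0 lower, against 1.78% and 2.4% of all genes. In wells with at least 3 macrophage markers, 1 of 9 was higher and 0 lower. Outside the list, the receptor genes ccr12a and ccr12b.2 were also at least 4-fold higher, with log2 ratios of 2.06 and 2.21. Without the photoreceptor-led well ccr12a was under 4-fold, at 1.95. The chemokine gene cxcl12 had 105 UMIs in mutants and 1 in siblings, but 77 of the 105 lay in 3 wells. The receptor genes cxcr4 (ENSDARG00000041959) and ccr9 had 474 and 762 UMIs in mutants, against 266 and 521 in siblings, with log2 ratios of 1.59 and 1.31.

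Of 22 heat shock and chaperone genes, 3 were at least 4-fold higher and 0 lower, against 1.78% and 2.4% of all genes. Without the photoreceptor-led well 6 of 21 were higher, with hsp70.1, hspa2 and bag3 then at log2 ratios of 2.17, 2.83 and 3.06. The collagen chaperone gene serpinh1 had 172 UMIs in mutants and 25 in siblings, 11.7-fold higher (7.63 to 18.5). The small heat shock gene hspb1 had 216 and 45 UMIs, 8.14-fold higher (5.87 to 11.5), and hsph1 90 and 24 UMIs, 6.35-fold higher (4.01 to 10.42). The abundant chaperone genes hspa8 and hsp90ab1 had log2 ratios of −0.19 and −0.04. Of 21 redox and iron genes listed and tested, 0 passed 4-fold in either direction. The thioredoxin gene txnb, which is not in that list, had 445 UMIs in mutants and 97 in siblings, 7.76-fold higher (6.23 to 9.78). The immediate early genes, which respond within minutes to handling and stimulation, had 0 of 24 past 4-fold and a median log2 ratio of −0.07.

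Other higher genes reached many wells. The adhesion gene cd99 had 69 UMIs in mutants and 6 in siblings, 19.5-fold higher (8.51 to 54.9), in 36 and 6 wells. With wells thinned to 1000 UMIs it was found in 5 mutant wells and 0 sibling wells. Its log2 ratio was then 1.41, a value set by putting the sibling 0 at 3 UMIs. The sulfotransferase gene sult5a1 had 172 and 38 UMIs, 7.68-fold higher (5.37 to 11.2), and si:ch211-198c19.3 had 482 and 107 UMIs, 7.62-fold higher (6.18 to 9.50). Among Shp1's signalling partners, src, a kinase of the Src family, was at least 4-fold higher in mutants, with 90 UMIs against 27 in siblings, 5.65-fold (3.64 to 9.03), or a log2 ratio of 1.84 with wells thinned to 1000 UMIs. None of the other 19 signalling genes tested passed 4-fold. The Src family kinase gene hck had 200 UMIs in mutants and 147 in siblings, a log2 ratio of 1.21.

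Genes of neutrophil granules were found in many mutant wells but rested on few. Lysozyme (lyz) had 799 UMIs (619 CPM) in mutants and 9 UMIs (4.12 CPM) in siblings, 150-fold higher (78.8 to 330.1). Of the 799, 625 lay in 3 wells and 609 in 1 well, and the highest level in a well was 80490 CPM. The gene had a UMI in 90 of 125 mutant wells and 7 of 199 sibling wells. In mutant wells under 500 UMIs lyz stood at 1061 CPM. The granule gene npsn had 109 UMIs in mutants, 86 of them in 3 wells and 80 in 1 well, and 17 in siblings, 10.8-fold higher (6.48 to 19.3). Its direction was opposite on sort day 1, with 22 UMIs in mutants and 41 in siblings, 35 of the 41 in 3 wells. The log2 ratio was then −1.23, a ratio of 0.427 (0.243 to 0.735). The neutrophil receptor genes csf3r and cxcr1 had 13 and 0 UMIs in mutants and 20 and 1 in siblings. Of 9 neutrophil markers tested, lyz and npsn were higher and 0 lower. All 12 neutrophil marker IDs together made up 0.256% of UMIs in mutants and 0.164% in siblings, and their part in the other results was not tested. On sort day 1 lyz had 0 UMIs in mutants and 0 in siblings. The osteopontin gene spp1 followed the same pattern, with 319 UMIs in mutants, 215 of them in 3 wells, and 0 in siblings. The ratio was 180 when the 0 was put at 3 UMIs per plate. Its counting interval began at 145.6 and had no upper bound. The gene spp1 had 0 UMIs in both pools of sort day 1.

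Among the spread-out lower genes the largest difference was that of ctsl.1, a cathepsin L gene of the lysosome. It had 29 UMIs (22.5 CPM) in mutants and 2058 UMIs (941 CPM) in siblings, a ratio of 0.0239 (0.016 to 0.0344). It was present in 15 of 125 mutant wells and 168 of 199 sibling wells. Per well it ran up to 575 CPM in mutants, with a median of 0, and up to 12432 CPM in siblings, with a median of 303. After thinning, 3.2% of mutant wells (0.879 to 7.99) and 38.2% of sibling wells (31.4 to 45.3) held it. The closely named ctsla had 508 UMIs (394 CPM) in mutants and 779 UMIs (356 CPM) in siblings, a log2 ratio of 0.15. Of 36 lysosome and phagocytosis genes, 1 was higher and 2 lower, where 1.78% and 2.4% of all genes were, and their median lay 0.09 below that of all genes. Outside the spread-out genes, the actinodin gene and2 of fin fold fibres had 0 UMIs in mutants and 369 in siblings, in 30 wells, with 6 of the 369 in the photoreceptor-led well.

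Other spread-out lower genes had varied roles. Of 8 complement and pattern recognition genes tested, 1 was higher in mutants, mrc1b, and 1 lower, pglyrp5, and the list's median was 0.80 below that of all genes. The peptidoglycan recognition gene pglyrp5 had 165 UMIs (128 CPM) in mutants and 1293 UMIs (592 CPM) in siblings, a ratio of 0.216 (0.183 to 0.254), in 51 and 172 wells. The gene xkr8.2, whose mammalian relative exposes phosphatidylserine on dying cells, had 30 UMIs in mutants and 401 in siblings, a ratio of 0.127 (0.0844 to 0.184). The endosomal sorting nexin gene snx10 had 29 and 337 UMIs, a ratio of 0.146 (0.0961 to 0.213), but a log2 ratio of 1.24 on sort day 1. The Rap guanine exchange factor gene rapgef2a had 99 and 900 UMIs, a ratio of 0.186 (0.150 to 0.229), in 44 and 168 wells. The gene si:ch211-284o19.8, with no described role in the files, had 196 UMIs in mutants and 1766 in siblings, a ratio of 0.188 (0.161 to 0.218). In each of pglyrp5, rapgef2a and si:ch211-284o19.8 the median well held 0 CPM in mutants, against 474, 360 and 654 CPM in siblings.

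Inflammatory mediators lay mostly below the other genes. Of 15 tested, 13 were under the median of all genes, 1 was at least 4-fold higher (mmp9) and 1 at least 4-fold lower, and the list's median log2 ratio was −0.59 in mutants over siblings, or 0.79 below that of all genes. The cyclooxygenase ID ptgs2 (ENSDARG00000004539), which makes prostaglandins, had 16 UMIs in mutants and 141 in siblings, a ratio of 0.192 (0.107 to 0.323). After thinning ptgs2 was found in 0 mutant wells and 10 sibling wells. Its log2 ratio was then −1.20, a value set by putting the mutant 0 at 3 UMIs. The itaconate enzyme gene acod1, among the most abundant of the list, had 2723 UMIs (2111 CPM) in mutants and 9700 UMIs (4438 CPM) in siblings, a log2 ratio of −1.07. The cytokine genes il12a and tnfa had 65 and 212 UMIs in mutants and 383 and 588 in siblings, with log2 ratios of −1.80 and −0.71. The NF-κB inhibitor genes nfkbiaa and tnfaip3 had log2 ratios of −0.44 and −0.49. The cytokine gene il11b, outside this list, had 19 UMIs in mutants and 163 in siblings, a ratio of 0.197 (0.116 to 0.318). On sort day 1 the list's median log2 ratio was −0.09, against 0.03 for all genes, and tnfa stood at 1.04.

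The remaining named lower genes were less abundant. The IDs zmp:0000001127 and zmp:0000000634 had 18 and 30 UMIs in mutants and 224 and 286 in siblings, with log2 ratios of −2.88 and −2.49; for zmp:0000000634 it was 0.90 on sort day 1. The genes si:ch73-173p19.1 and abtb2 had 13 and 22 UMIs in mutants and 132 and 158 in siblings, with log2 ratios of −2.58 and −2.08. The fast muscle gene myl11 had 10 UMIs in mutants and 83 in siblings, a log2 ratio of −2.29. With wells thinned to 1000 UMIs the log2 ratio was −1.59 for zmp:0000000634, −1.14 for si:ch73-173p19.1 and −1.50 for myl11. With each well weighing the same it was −1.69 for abtb2. After thinning zmp:0000001127 was found in 0 mutant wells and 14 sibling wells. Its log2 ratio was then −1.74, a value set by putting the mutant 0 at 3 UMIs. On sort day 1 myl11 had 1769 UMIs in mutants, 1616 of them in 3 wells, and 145 in siblings, where muscle markers made up 1.74% of mutant UMIs and 0.254% of sibling UMIs. On sort day 2 they made up 0.0363% in mutants and 0.0658% in siblings.

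**Figure D3:**
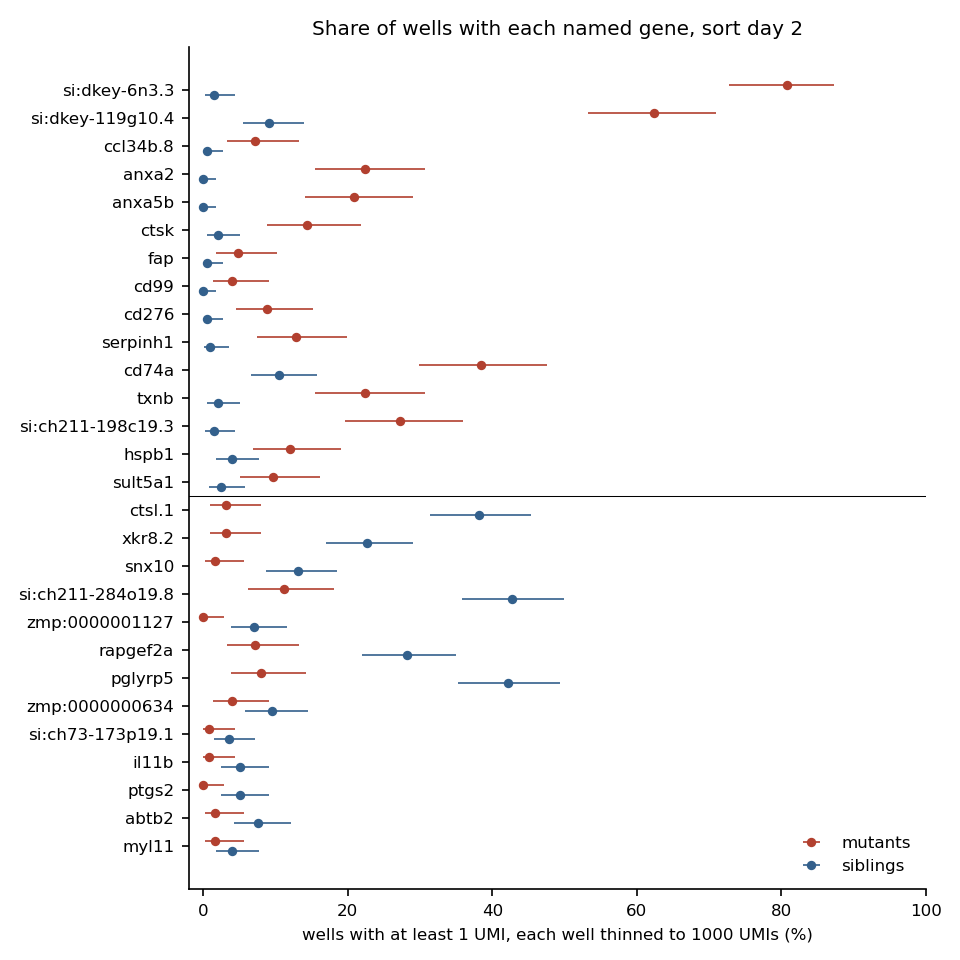
Share of wells with at least 1 UMI of each named gene after each well was thinned to 1000 UMIs (horizontal axis, percent), for mutants (upper point) and siblings (lower point), with exact 95% Clopper-Pearson intervals; higher genes stand above the line and lower genes below it. The shares of si:dkey-6n3.3 and si:dkey-119g10.4 are 80.8% and 62.4% in mutants, against 1.51% and 9.05% in siblings.

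Among macrophage markers, 2 of 20 passed 4-fold, cd74a and cd74b, and the list's median lay 0.23 below that of all genes. The mpeg1 ID ENSDARG00000055290, of the perforin-like gene whose promoter gives the reporter its name, had 238 UMIs (185 CPM) in mutants and 320 UMIs (146 CPM) in siblings. The mfap4 ID ENSDARG00000088745, a macrophage marker of zebrafish, had 249 UMIs (193.2 CPM) in mutants and 1527 UMIs (699 CPM) in siblings, a log2 ratio of −1.85, and 2 further mfap4 IDs had −1.24 and −1.29. The NADPH oxidase subunit gene ncf1 had 686 and 2915 UMIs, a log2 ratio of −1.33. The myeloid transcription factor gene cebpa had 215 and 920 UMIs, a log2 ratio of −1.34. The integrin gene itgb2, a leukocyte adhesion subunit, had 528 UMIs in mutants and 288 in siblings, a log2 ratio of 1.63.

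Several large lists were shifted as a whole by less than 2-fold on sort day 2. Of 77 genes of oxidative phosphorylation encoded in the nucleus, 69 lay above the median of all genes, and their median was 0.34 above it, or 0.48 above it without the photoreceptor-led well. The 13 genes of the mitochondrial genome did not share this, with 2 above and 11 below and a median 0.13 lower. Of 76 IDs named as cytosolic ribosomal proteins, 71 lay below the median of all genes, and the list's median was 0.31 lower. The 5 above it were rpl22l1, rps6kb1a, rps6ka3, rps6kb1b and rps19bp1, of which the 3 rps6k genes encode kinases and not ribosomal proteins. All 84 IDs of this list, these 5 included, made up 14.5% of UMIs in mutants and 15.9% in siblings. Of 39 migration and cytoskeleton genes, 28 lay above the median of all genes and gsn, an actin-severing protein gene, was at least 4-fold higher, with 54 and 22 UMIs, but not with TMM scaling, where its log2 ratio was 1.80. The thymosin gene tmsb4x, which binds actin monomers, had 13572 CPM in mutants and 8230 CPM in siblings, a log2 ratio of 0.72, and the Arp2/3 subunit gene arpc4 had 292 and 130 CPM, a log2 ratio of 1.17. On sort day 1 the median log2 ratio was 0.04 for the nuclear oxidative phosphorylation list and −0.06 for the migration and cytoskeleton list. It was −0.31 for the ribosomal list and 0.03 for all genes.

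**Figure D4:**
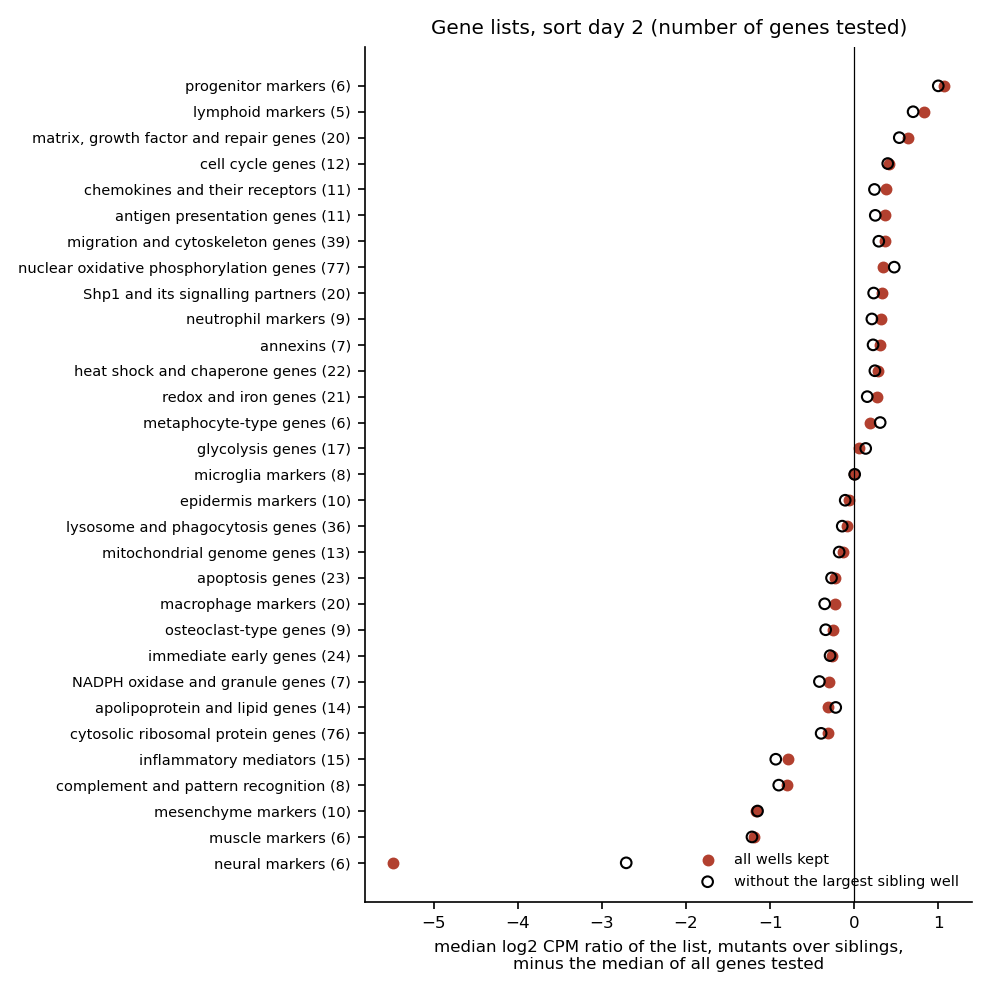
Median log2 CPM ratio (mutants over siblings) of each gene list with at least 5 genes tested, minus the median of all genes tested (horizontal axis), with all wells kept (filled) and without the photoreceptor-led sibling well (open); the number of genes is in brackets. The brackets count genes tested with all wells kept. The neural list moves most when that well is left out, but its genes tested then fall from 6 to 2. The inflammatory mediators stay below 0 and the matrix list stays above it.

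In further lists few members passed 4-fold. Of 17 glycolysis genes 0 were higher and 1 lower, the enolase gene eno1 with 8 UMIs in mutants and 131 in siblings, and 0 were lower without the photoreceptor-led well. Of 23 apoptosis genes 0 were higher and 1 lower, and of 14 apolipoprotein and lipid genes 0 were higher and 1 lower, the last of which, fabp7, was no longer called without that well. Of 7 NADPH oxidase and granule genes 1 was higher, lyz, and of 6 metaphocyte-type genes 1 was higher, lgals9l1, with 0 lower in both. Of 4 interferon genes tested 0 passed 4-fold in either direction. The interferon regulator gene irf7 had 345 UMIs (268 CPM) in mutants and 326 UMIs (149 CPM) in siblings, 1.79-fold higher (1.54 to 2.09). The most abundant ID without a symbol, ENSDARG00000080337, had 72464 CPM in mutants and 76079 CPM in siblings.

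Markers of other cells were counted in the same way. Of 6 neural markers tested 5 were at least 4-fold lower in mutants, or 1 of 2 without the photoreceptor-led well. The neural list summed to 0.00496% of UMIs in mutants and 0.157% in siblings, or 0.0261% in siblings without that well. The epidermis markers held 2 higher and 3 lower of 10. The keratin genes krt4 and krt5 had 18 and 0 UMIs in mutants and 422 and 262 in siblings, of which 352 and 243 lay in 3 wells. The keratin gene krt8 had 1268 UMIs in mutants and 714 in siblings, a log2 ratio of 1.59. Progenitor and lymphoid lists had medians 1.07 and 0.83 above that of all genes with 0 of 6 and 0 of 5 past 4-fold. In each, 1 member lay below the median of all genes, cebpa at a log2 ratio of −1.34 and ikzf1 at −1.91. On sort day 1 the list medians were 0.17 and −0.17, against 0.03 for all genes. On sort day 2 the summed levels of these lists were 0.103% and 0.0939% in mutants and 0.0781% and 0.0486% in siblings. The lymphoid markers nkl.3 and nkl.4 had 0 UMIs in mutants and 20 and 9 in siblings. Lower list members such as the rod opsin gene rho, the lipid binding gene fabp7 and the synaptic gene snap25 had 1, 0 and 0 UMIs in mutants, against 926, 186 and 212 in siblings. Of these sibling UMIs, 852, 148 and 186 lay in the photoreceptor-led well. None of the 3 thrombocyte, 1 endothelial, 1 mast and eosinophil and 6 muscle markers tested passed 4-fold. The fast muscle gene myl11, which was not among the muscle markers matched, was lower, with a log2 ratio of −2.29. No erythroid marker and no yolk, liver or gut marker reached the CPM minimum, and the erythroid markers summed to 0.00217% of UMIs in mutants and 0.00499% in siblings. None of the 12 cell cycle genes tested was at least 4-fold higher and stmn1 (ENSDARG00000033655) was lower, with 85 of its 109 sibling UMIs in the photoreceptor-led well. The part of these cells in the other results was not tested.

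The shared plate of sort day 1 gives values that the choice of these genes did not use, with both genotypes on 1 plate. There the 2 genotypes occupy the upper and lower rows, and the columns carry well numbers, which were read row by row. Of 4450 genes tested on that plate, 73 were at least 4-fold higher in mutants (1.64%) and 13 at least 4-fold lower (0.292%). In its mutant pool the largest well held 78114 UMIs and the next 33273. Muscle markers made up 1.74% of mutant UMIs there and 0.254% of sibling UMIs. Of 9329 mutant UMIs of the muscle gene pvalb2, 8560 lay in 3 wells. These counts were not repeated without such wells. Of the 62 spread-out genes higher on sort day 2, 51 were also higher in mutants on sort day 1 and 34 were at least 2-fold higher, with a median log2 ratio of 1.09. Among all genes compared on both days, 52.5% were higher on sort day 1 and 5.55% at least 2-fold higher. Of the 18 spread-out lower genes, 9 were lower on sort day 1 and 4 at least 2-fold lower, with a median log2 ratio of 0.09, where 47.5% and 2.39% of all genes were.

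Single genes show how far the 2 days differed. On sort day 1 si:dkey-6n3.3 had 864 CPM in mutants and 74.9 CPM in siblings, 11.5-fold higher (9.24 to 14.6), and si:dkey-119g10.4 had 681 and 66 CPM, 10.3-fold higher (8.14 to 13.3). The gene anxa2 had 56.2 CPM in mutants and 20.5 CPM in siblings, and ctsk 107 and 46.4 CPM. The gene cd74a had 538 CPM in mutants and 190 CPM in siblings. Both mutant pools lay above both sibling pools in 14 of the 15 named higher genes, where 20.4% of all 4373 genes showed this, and serpinh1 was the exception. For the named lower genes the 2 mutant pools lay below both sibling pools in 7 of 13, against 10.1% of all genes. The direction of sort day 2 was fixed by the choice of these genes. The gene ctsl.1 had 467 CPM in mutants and 684 CPM in siblings on sort day 1, so that the mutants of sort day 2, at 22.5 CPM, stood apart from the other 3 pools. The gene pglyrp5 had 163 and 311 CPM on sort day 1 and rapgef2a 176 and 145 CPM.

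**Figure D5:**
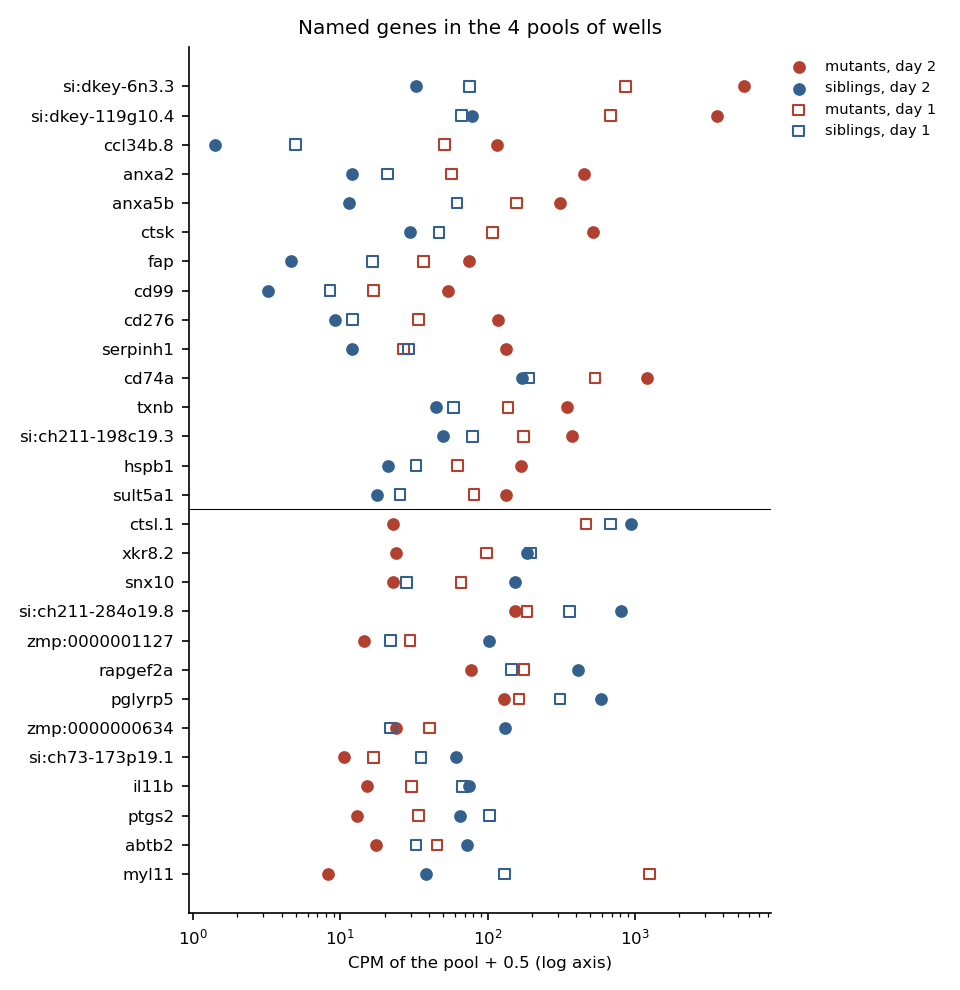
CPM (plus 0.5, log axis) of the 28 named genes in the mutant and sibling pools of sort day 2 (filled circles) and sort day 1 (open squares). For the higher genes, above the line, both mutant pools lie above both sibling pools except in serpinh1; among the lower genes, ctsl.1 in mutants of sort day 2 lies at 22.5 CPM while the other 3 pools lie between 467 and 941 CPM.

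Plates of the same genotype also differed between days. Mutants of sort day 2 over mutants of sort day 1 had 34 genes at least 4-fold higher (0.741%) and 93 lower (2.03%) of 4591. Siblings of sort day 2 over siblings of sort day 1 had 95 higher (2.25%) and 44 lower (1.04%) of 4224, and without the photoreceptor-led well 41 higher (1%) and 50 lower (1.22%) of 4083. The mutant counts kept the muscle-rich wells of sort day 1, where pvalb2 stood at 6632 CPM in mutants, against 44.2 CPM on sort day 2. No mutant count was made without those wells. With them kept, the counts between plates of 1 genotype were of the same order as those between genotypes on sort day 2.

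Genes on the chromosome of ptpn6 were counted apart. By the chromosome assignment of RefSeq for assembly GRCz12tu, 175 tested genes lie there, of which 5 were at least 4-fold higher in mutants (2.86%) and 2 lower (1.14%). On the other chromosomes 54 of 3228 genes were higher (1.67%) and 76 lower (2.35%). The 5 higher genes were chn2, phf20l1, s100a10b, ctsk and si:ch211-198c19.3, and the 2 lower genes ptp4a3b and bcam.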

How the data were processed

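Each plate was deposited as a table of expected counts per gene and well. The unit was read from the deposited values: 100% of the values above 0 became whole numbers of UMIs, within 0.005, when a correction for repeated UMIs out of 4096 was inverted, and well totals differ, so no scaling for depth had been applied. Reads had been aligned with BWA to Zv9, per the submitters' processing notes; how they were counted, and with which annotation, is not stated there. Spike-in rows were left out. Gene symbols were matched for 17027 of 21915 IDs.

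Wells with at least 1000 UMIs were summed by plate and scaled to CPM with Python 3.11.15. A gene was tested at a mean CPM of at least 20 and called at 4-fold; a count of 0 was put at 3. Ratio intervals are exact conditional 95% intervals, and well shares have exact Clopper-Pearson intervals. All cover counting error only. The calculation was tested on simulated data. No doublet caller was run; dropping the richest 2% of wells was tried instead. TMM factors came from edgeR 4.0.16. Well numbers 1 to 384 repeat in each plate by design. On the shared plate they were read row by row. The reason was that the 8 corner wells usually left empty then held a median of 0.0591 of the plate median (1.66 if read column by column). These ratios were 0.0890 in the sibling plate and 0.799 in the mutant plate of sort day 2. Read column by column they were 0.198 and 1.07, so those plates set the readings less far apart.

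The named genes are those with a symbol that passed 4-fold, were spread over wells and had the interval bound farthest from equality: 15 higher, and 13 lower since no more qualified. Members of the 37 gene lists past 4-fold, the most abundant members of lists without one, and an ID without a symbol with over 5% of UMIs were also eligible. Members and lists were chosen with earlier results of these data known. Other genes were picked after their values were seen. List members were matched by symbol, or else without the paralogue letter or copy number, a fallback added after the names were seen.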

Additional observations from a re-analysis of the deposited data

Results flagged for a closer look

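Of the spread-out genes past 4-fold on sort day 2, 51 of 62 higher and 9 of 18 lower genes had the same direction on the shared plate of sort day 1. Among those with the opposite direction, 6 that were named or listed had a day 1 counting interval that left out equality; the difference between the days was not tested. Among genes lower in mutants on sort day 2, the log2 CPM ratio of sort day 1 was 1.24 for snx10, 0.90 for zmp:0000000634 and 3.28 for myl11, of whose 1769 mutant UMIs that day 1616 lay in 3 wells. Among genes higher in mutants on sort day 2, it was −0.82 for s100a10b, −1.79 for anxa1 and −0.39 for mmp9, of whose 141 sibling UMIs that day 95 lay in 3 wells.

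Wells with under 500 UMIs, which were in no comparison, carried the leading genes of their own plate. In the 250 such mutant wells, si:dkey-6n3.3 stood at 4631.5 CPM (179 UMIs, in 117 wells), against 60.9 CPM (2 UMIs) in the 165 such sibling wells. In the same wells si:dkey-119g10.4 stood at 2432 CPM in mutants and 122 CPM in siblings, and cd74a at 1113 CPM in mutants and 30.4 CPM in siblings. The part of free RNA, or of RNA spread between the wells of a plate, in the share of wells with these genes was not tested.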

How the results depend on the processing

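No paired analysis was possible because sort day 2 has 1 plate a genotype and no result comes from a test. The count of higher genes was 78 and that of lower genes 105. It kept within 1.5 times at well minimums of 500 and 2000 UMIs, in wells with 3 macrophage markers and before the correction of repeated UMIs. TMM scaling gave 49 higher, and scaling by the median gene ratio 55 higher (126 lower). Without a filter, which tests more genes, 692 were higher and 738 lower, and with a mean CPM of at least 100, which tests fewer, there were 22 and 21. With each well weighing the same 161 were higher and 34 lower, and with wells thinned to 1000 UMIs 295 were higher (117 lower). Without the 2% of richest wells 36 were lower, and without each gene's 3 richest wells 40 were lower (54 higher). Without the photoreceptor-led well, chosen after seeing the data, 42 were lower, with cone genes still among them. Leaving out wells with 5 neutrophil marker UMIs left 20 mutant and 19 sibling wells, since that list holds srgn and rac2, which macrophages express, and gave 469 higher and 259 lower. At 2-fold there were 500 and 246, at 8-fold 25 and 71, and keeping only spread-out genes, also added later, gave 62 and 18. Of 56 called genes named or eligible by lists, 28 stayed past 4-fold in all settings that gave a value. The log2 ratio changed sign for cox4i2, to 0.34 with equal well weights and 0.26 with thinned wells, and for krt91, to 0.66 and 0.67. Without the neutrophil-marker wells it was 3.09 for krt91, 1.02 for ptgs2 and 5.53 for col1a1a. The cause was not tested. Counts of under 10 UMIs, such as those of ptpn6, limit what this depth can show.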
